A study of Homo sapiens with 6 samples.

Results

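The NF-kappaB subunit and feedback genes described here are 10 genes, taken as the rows of the deposited expression table whose gene name equals NFKBIA, NFKBIZ, NFKB1, NFKB2, RELA, RELB, TNFAIP3, BIRC3, ICAM1 or TRAF1. All 10 were found, each in 1 row of the 62703 in the table. Messenger RNA was sequenced from the 786-O line, derived from a human clear cell kidney carcinoma and without functional VHL protein, in 2 groups of 3 libraries. The control libraries are titled NC and have the genotype WT, and the other libraries come from cells of the genotype OGT overexpressed, grown in the same medium. OGT is the enzyme that attaches O-GlcNAc to nuclear and cytosolic proteins, so the comparison asks how its overexpression goes with NF-kappaB transcript levels. The sources used here do not give how OGT was introduced, whether the lines are single clones or whether replicates are separate cultures. The p-values therefore rest on the spread among these libraries alone, and that spread may be technical.

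NF-kappaB factors are dimers built from RELA, RELB, REL and the processed products of NFKB1 and NFKB2. In resting cells IkappaB proteins hold the dimers in the cytoplasm; signals from tumour necrosis factor or interleukin 1 receptors activate the IKK kinase, which marks IkappaB for destruction and frees the dimers to enter the nucleus. Many of the genes they switch on feed back on the pathway, among them NFKBIA, TNFAIP3 and BIRC3, and NF-kappaB activity is known to be raised in VHL-deficient renal carcinoma cells. RELA, REL and the kinase IKBKB are among the proteins known to carry O-GlcNAc.

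Feedback by NF-kappaB acts through a short DNA element, the kappaB site, so the promoter stretches that hold it are shown for the genes whose values follow. The search used the 10-base kappaB consensus GGGRNNYYCC on both strands of the 250 bases before each RefSeq transcript start (GRCh38.p14). In it R is A or G, Y is C or T, and N is any base. Windows were found for 9 of the 10 genes, and 6 of these held at least 1 match: NFKBIA, NFKBIZ, NFKB1, NFKB2, TNFAIP3 and BIRC3. The windows of RELA, ICAM1 and TRAF1 held none in these letters. A kappaB site that departs from these letters would be missed, in these windows and in those with a match. Over all 35116 windows of the same length, 9.96% held a match, against 50% of the 16 windows of these genes. Counted by gene, it was 11.8% of 27305 genes with a window, against 66.7% of these 9. Some genes have several windows. The genes were picked as NF-kappaB subunits and feedback genes, so these shares describe the set and test nothing. Capitals mark the match on either strand, and matches that overlap each other are marked as 1 run.

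The NFKBIA window, chr14:35404750-35404999 on the minus strand, lies wholly upstream of the gene, and its match begins 81 bases before the transcript start.
NFKBIA: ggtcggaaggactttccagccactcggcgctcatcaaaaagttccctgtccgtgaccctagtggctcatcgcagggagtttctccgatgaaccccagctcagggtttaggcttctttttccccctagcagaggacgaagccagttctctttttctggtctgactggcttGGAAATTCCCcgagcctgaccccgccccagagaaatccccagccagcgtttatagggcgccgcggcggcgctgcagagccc

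A stretch of 30 bases around a match is shown for each of the other 5 genes, all on the plus strand. They lie at chr3:101827757-101827786 (NFKBIZ, upstream), chr4:102501300-102501329 (NFKB1, match upstream), chr6:137867188-137867217 (TNFAIP3, in an annotated exon), chr10:102394462-102394491 (NFKB2, match in an annotated exon before an inner start) and chr11:102317275-102317304 (BIRC3, upstream).
NFKBIZ: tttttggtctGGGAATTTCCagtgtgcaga
NFKB1: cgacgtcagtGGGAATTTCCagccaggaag
TNFAIP3: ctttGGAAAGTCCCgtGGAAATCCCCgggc
NFKB2: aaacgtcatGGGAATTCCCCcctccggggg
BIRC3: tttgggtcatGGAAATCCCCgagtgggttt
TNFAIP3 holds a pair of matches within these 30 bases, and BIRC3 has a further match 135 bases before its start. Further matches, not printed, begin at base 101849275 of chromosome 3 before an inner start of NFKBIZ, and at bases 102394500, 102395529 and 102395684 of chromosome 10 before inner starts of NFKB2. A match describes the sequence and was not set against any binding data.

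OGT itself checks the labels. Its transcript was 23.11, 22.57 and 23.62 TPM in the control libraries and 352.74, 352.92 and 270.87 TPM in the overexpressing ones (a transcript level scaled by length and by library total). Genes that reached 1 TPM in 3 or more libraries were tested with limma on log2(TPM + 1), where low genes show compressed changes, and a gene was called at a Benjamini-Hochberg adjusted p below 0.05 over 12645 genes. Of these, 48.8% were called, 39.1% higher and 9.7% lower with OGT overexpression, and their median log2 change was 0.30. Quantile normalization reduced that shift to 0.02, and it was -0.09 after median centring, in which each library's median is set to a common value. Changes followed the GC content and the length of the transcript, with Spearman correlations across genes of -0.472 and 0.386, so values with that trend removed are given as corrected changes. Of 9 markers of kidney epithelium or clear cell carcinoma lines 8 reached 1 TPM in some library, and LRP2 was at most 0.01 TPM. They did not move together. VIM was 1758.85 to 1958.97 TPM in control and 2761.42 to 2780.57 TPM in OGT libraries, whereas KRT18 was 581.09 to 605.34 and 440.24 to 487.87 TPM. CDH6 was 28.69 TPM in control replicate 2, and 2.69 and 3.05 TPM in control replicates 1 and 3. The 5 immune markers summed to between 67.27 and 73.37 TPM in control and between 101.85 and 119.86 TPM in OGT libraries, most of it CD68, which lysosomes of many cell types contain. PTPRC was 12.23 TPM in control replicate 1 and at most 0.07 TPM elsewhere. The 3 endothelial markers reached at most 4.22 TPM (PECAM1, control replicate 1). PECAM1 was 2.65 TPM in OGT replicate 2 and at most 0.78 TPM in the other libraries. The 4 fibroblast markers reached at most 2.35 TPM (PDGFRB, control replicate 3). The part of all these markers in the results below was not tested. TPM keeps no read total, so depth and counting error are unknown, and in bulk samples a lower value from fewer expressing cells cannot be told from less RNA per cell.

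The 10 genes did not move as a block: 6 rose, 1 fell and 3 were not called. RELA, NFKB1, NFKB2, TNFAIP3, BIRC3 and ICAM1 rose, NFKBIA fell, and NFKBIZ, RELB and TRAF1 missed the threshold. That is 6 of 10 higher beside 39.1% of all tested genes, and 1 of 10 lower beside 9.7%. Their median log2 change was 0.50, the lowest -0.59 and the highest 0.82. All 10 were above 1 TPM in every library, so the filter removed none of them. By ranges of single libraries, 6 genes lay wholly higher in the OGT group and 2 wholly lower, where 46.2% and 12.4% of all tested genes did so. After quantile normalization 3 of the 10 were called higher and 3 lower (all genes 20.2% and 17.8%), after median centring 2 and 4 (all genes 15.3% and 24.2%), and after correction 2 and 2 (all genes 16% and 12.8%). RELA, ICAM1 and NFKBIA kept both call and direction in all 14 alternative fits.

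**Figure D1:**
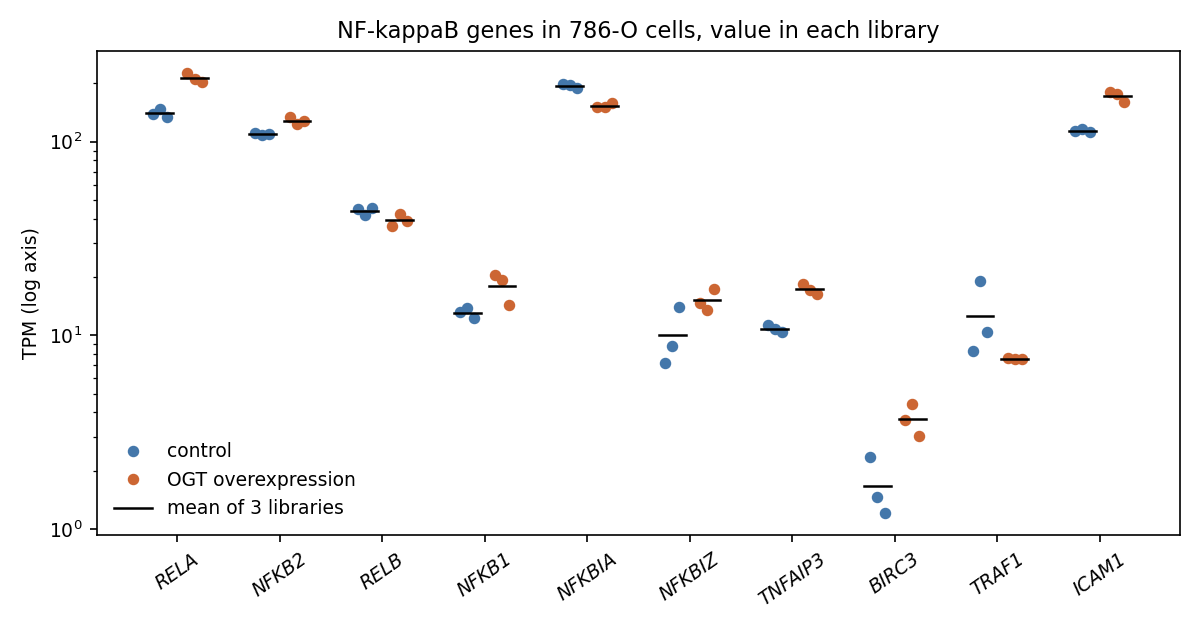
TPM of each of the 10 genes (log axis) in the 3 control and 3 OGT-overexpressing libraries, 1 point per library, with black lines for group means. RELA and ICAM1 points of the OGT libraries lie above all control points, NFKBIA points lie below them, and the NFKBIZ and RELB points of the groups overlap.

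Among the subunits, RELA, which encodes the main transactivating partner of the canonical dimer, changed most clearly. RELA (ENSG00000173039, chromosome 11, 65653596 to 65663094, minus strand, GENCODE release 29 on GRCh38) was 138.38, 147.58 and 133.98 TPM in control libraries and 226.77, 209.5 and 202.9 TPM in OGT libraries. Every OGT library stood above every control library. The log2 change was 0.60 (SE 0.0599, 95% interval 0.46 to 0.74, limma adjusted p = 3.67e-04), and 69.4% of all tested genes had a change of that size or lower. It was 0.45 after correction (adjusted p = 0.00142) and 0.21 after median centring (adjusted p = 0.0409). A long noncoding gene on the opposite strand, AP001362.2, shares 9 exon bases with RELA and reached at most 5.19 TPM.

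NFKB1, which encodes the precursor of the canonical partner subunit, was much lower than RELA and rose less securely. NFKB1 (ENSG00000109320, chromosome 4, 102501329 to 102617302, plus strand) was 13.14, 13.85 and 12.35 TPM in control and 20.47, 19.27 and 14.34 TPM in OGT libraries, where replicate 3 sat just above the controls. The log2 change of 0.42 (SE 0.144, limma adjusted p = 0.0481) passed the threshold narrowly. Leaving out any 1 of control replicates 1, 2 and 3 or OGT replicates 1 and 2 ended the call (adjusted p between 0.077 and 0.148), and the corrected change was -0.01 (adjusted p = 0.977). The call was also lost after median centring (0.03, adjusted p = 0.889) and quantile normalization (0.08, adjusted p = 0.684).

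NFKB2 and RELB together form the noncanonical dimer; NFKB2 was called higher as deposited and RELB was not called. NFKB2 (ENSG00000077150, chromosome 10, 102394110 to 102402529, plus strand) was 110.26, 108.05 and 109.72 TPM in control and 133.8, 122.99 and 127.21 TPM in OGT libraries, with no overlap. Its log2 change was 0.22 (SE 0.049, adjusted p = 0.00865), which is below the median of all tested genes. The sign turned after median centring (-0.16, adjusted p = 0.0409), and the call was lost after correction (0.12, adjusted p = 0.127) and after quantile normalization (0.13, adjusted p = 0.0834). RELB (ENSG00000104856, chromosome 19, 45001430 to 45038198, plus strand) was 44.66, 41.68 and 45.38 TPM in control and 36.73, 42.51 and 39.01 TPM in OGT libraries. The groups overlapped, and the change of -0.15 (95% interval -0.34 to 0.03, adjusted p = 0.142) was not called. RELB was called lower after quantile normalization (-0.40, adjusted p = 0.00575) and median centring (-0.54, adjusted p = 0.00154) but not after correction (-0.12, adjusted p = 0.267). REL, the remaining subunit and abundant mainly in lymphoid cells, lay between 0.03 and 0.07 TPM in control and between 0.09 and 0.24 TPM in OGT libraries and was not tested.

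Because a common factor for all genes of a library leaves shares within it as they are, the subunit makeup is given as well. A trend with GC content or length does alter shares. RELA (GC 57.1%, 3183 bases) and RELB (GC 65.4%, 2294 bases) differ in both. The 5 subunit transcripts summed to 306.5, 311.2 and 301.5 TPM in control and to 418, 394.4 and 383.6 TPM in OGT libraries. RELA made up 45.7% ± 1.56 (SD, n = 3) of that sum in control and 53.4% ± 0.726 (n = 3) in OGT libraries. RELB went the other way, with 14.3% ± 0.853 in control and 9.91% ± 1.02 in OGT libraries. NFKB2 took 35.7% ± 0.87 and 32.1% ± 0.998, and NFKB1 took 4.28% ± 0.177 and 4.51% ± 0.665. The shares of RELA, RELB and NFKB2 did not overlap between the groups, whereas those of NFKB1 did. RELA stood at 3.20 ± 0.306 times RELB in control and 5.43 ± 0.655 times RELB in OGT libraries (SD, n = 3 each). These shares and ratios are descriptions without correction for the GC and length trend, and no test was made of them.

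NFKBIA, which encodes IkappaB alpha, the inhibitor that captures RELA dimers and is itself resynthesized by them, was the gene that fell. NFKBIA (ENSG00000100906, chromosome 14, 35401511 to 35404749, minus strand) was 198.16, 195.54 and 189.19 TPM in control and 150.87, 150.43 and 158.54 TPM in OGT libraries. All OGT libraries were lower than all controls. The log2 change was -0.34 (SE 0.0438, 95% interval -0.44 to -0.24, limma adjusted p = 9.85e-04), and 13% of tested genes had a change as low or lower. The corrected change was -0.35 (adjusted p = 0.00162), and median centring, which shifts all genes down, gave -0.73.

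Set beside its inhibitor within each library, RELA was 0.698, 0.755 and 0.708 times NFKBIA in control and 1.503, 1.393 and 1.28 times in OGT libraries. NFKBIA thus stood above RELA in every control library and below it in every OGT library. These ratios were not corrected for the GC and length trend. By Euclidean distance of centred log2 profiles over the 6 libraries, the genes nearest to NFKBIA among those tested were MARCHF2 (distance 0.0457, log2 change -0.33), RPS20 (0.0478, -0.34) and BRMS1 (0.048, -0.34). This likeness holds for the values as deposited. The corrected changes were -0.26 for MARCHF2, -0.77 for RPS20 and -0.18 for BRMS1, where NFKBIA was at -0.35.

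**Figure D2:**
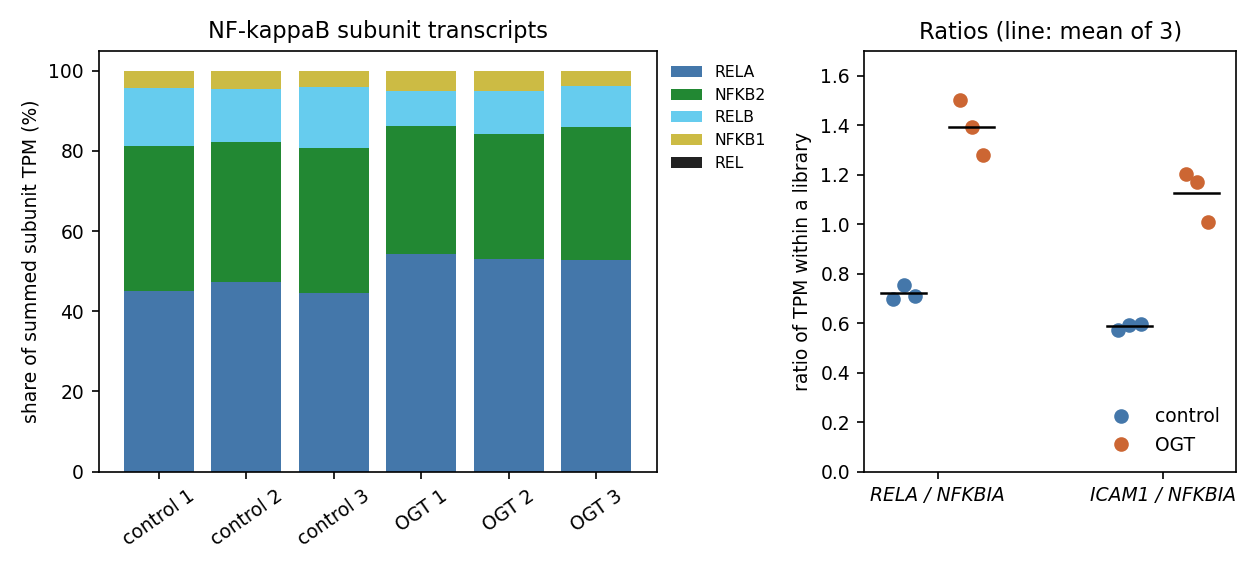
Left, share of each subunit in the summed TPM of RELA, NFKB2, RELB, NFKB1 and REL in each library (%); right, ratio of RELA and of ICAM1 to NFKBIA within each library, with lines for the mean of 3. The RELA share averages 45.7% in control and 53.4% in OGT libraries, and both ratios are below 1 in all control and above 1 in all OGT libraries.

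NFKBIZ encodes an atypical nuclear IkappaB protein that works with NF-kappaB on a subset of its targets. NFKBIZ (ENSG00000144802, chromosome 3, 101827991 to 101861022, plus strand) was 7.19, 8.77 and 14.06 TPM in control and 14.77, 13.57 and 17.31 TPM in OGT libraries. Control replicate 3 lay inside the range of the OGT group. The change of 0.60 (SE 0.229, adjusted p = 0.0663) was not called. Leaving out control replicate 3 gave a called change of 0.85 (adjusted p = 0.0077). A fit with the replicate number as a block also called it (adjusted p = 0.0364). These were the only 2 calls in 14 alternative fits. The change was 0.24 after quantile normalization (adjusted p = 0.433) and 0.21 after median centring (adjusted p = 0.5). The corrected change was 0.02 (adjusted p = 0.957).

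The feedback enzymes TNFAIP3 and BIRC3 both rose. TNFAIP3, a ubiquitin-editing enzyme that shuts down IKK activation (ENSG00000118503, chromosome 6, 137867188 to 137883312, plus strand), was 11.25, 10.77 and 10.47 TPM in control and 18.52, 17.12 and 16.43 TPM in OGT libraries. The groups did not overlap, and the log2 change was 0.63 (SE 0.0957, adjusted p = 0.00193). The call was lost after correction (0.16, adjusted p = 0.235) and after median centring (0.24, adjusted p = 0.0814). The antisense gene AL357060.1 shares 95 exon bases with it and reached at most 1.02 TPM, and without stated strand its reads cannot be told apart.

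BIRC3, a ubiquitin ligase of the tumour necrosis factor receptor complex (ENSG00000023445, chromosome 11, 102317450 to 102339403, plus strand), was the lowest of the 10. It was 2.35, 1.46 and 1.21 TPM in control and 3.65, 4.40 and 3.02 TPM in OGT libraries, so the groups did not overlap. Its log2 change of 0.82 (SE 0.228, adjusted p = 0.0219) was the highest of the 10 genes. BIRC3 also has the lowest GC content of the 10, 34.8%, and its corrected change was 0.12 (adjusted p = 0.723). Leaving out any 1 of control replicates 2 and 3 or OGT replicates 1 and 2 ended the call (adjusted p between 0.0602 and 0.0775), as did median centring and quantile normalization (adjusted p = 0.163 and 0.151).

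TRAF1, an adaptor of the same receptor complex (ENSG00000056558, chromosome 9, 120902393 to 120929173, minus strand), did not follow them. It was 8.34, 19.1 and 10.41 TPM in control and 7.66, 7.56 and 7.55 TPM in OGT libraries. The 3 OGT libraries lay close together below every control, whereas control replicate 2 was far above its own group. The change of -0.59 (SE 0.27, adjusted p = 0.114) was not called, and it was -0.27 (adjusted p = 0.205) without control replicate 2. TRAF1 was called lower without control replicate 1 (-0.82, adjusted p = 0.0361), after quantile normalization (-0.96, adjusted p = 0.0296), after median centring (-0.97, adjusted p = 0.0315) and after correction (-0.91, adjusted p = 0.0479).

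ICAM1, an adhesion molecule for leukocytes and a classical NF-kappaB target (ENSG00000090339, chromosome 19, 10270835 to 10286615, plus strand), rose. It was 113.62, 115.96 and 112.54 TPM in control and 181.39, 176.17 and 159.76 TPM in OGT libraries. The groups lay well apart. The log2 change was 0.59 (SE 0.0577, 95% interval 0.45 to 0.73, limma adjusted p = 3.48e-04), 0.43 after correction (adjusted p = 0.00105) and 0.20 after median centring (adjusted p = 0.0329). Relative to NFKBIA in the same library it was 0.587 ± 0.0119 in control and 1.13 ± 0.105 in OGT libraries (SD, n = 3 each). That ratio, too, was not corrected for the trend. The antisense genes AC011511.5 and AC011511.2 share 815 and 61 exon bases with ICAM1 and reached at most 0.34 and 0.67 TPM.

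**Figure D3:**
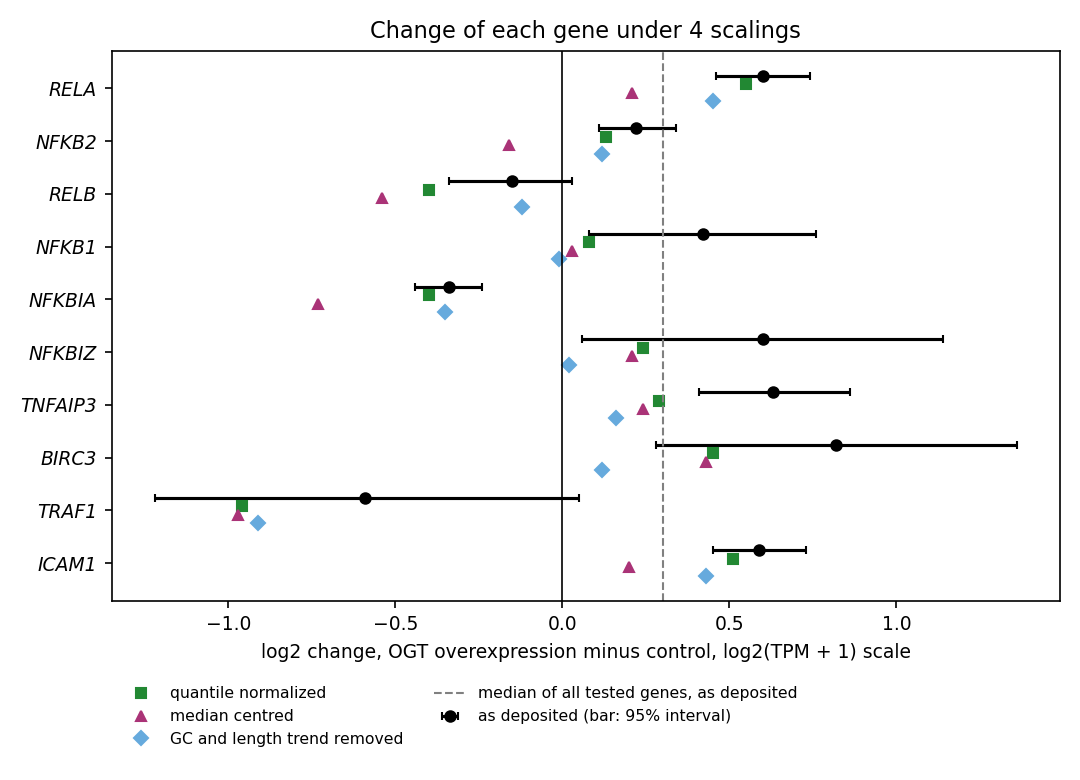
Log2 change of each gene (OGT overexpression minus control, log2(TPM + 1) scale) as deposited with its 95% interval, and after quantile normalization, median centring and removal of the GC and length trend; the dashed line is the median of all tested genes, 0.30. Under all 4 scalings RELA, ICAM1, TNFAIP3, BIRC3 and NFKBIZ stay right of 0 and NFKBIA, RELB and TRAF1 left of 0. NFKB2 is at -0.16 after median centring and NFKB1 at -0.01 after trend removal.

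The order of levels in TPM also changed. TPM is scaled by length, but changes still followed GC content and length, and this order was not corrected for that trend. Whether the order would hold after such a correction was not tested. In control cells the order was NFKBIA (mean 194 TPM), RELA (140), ICAM1 (114), NFKB2 (109) and RELB (43.9), and no neighbouring pair among these overlapped. NFKB1 (13.1), TRAF1 (12.6), TNFAIP3 (10.8) and NFKBIZ (10.01) followed with neighbours that overlapped, and BIRC3 (1.67) was lowest. In OGT libraries RELA (213) and ICAM1 (172) led, ahead of NFKBIA (153), NFKB2 (128) and RELB (39.4), again without overlap of neighbours. NFKB1 (18), TNFAIP3 (17.4) and NFKBIZ (15.2) overlapped, and TRAF1 (7.59) stood between them and BIRC3 (3.69).

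The rest of the pathway was read from a list of 58 other receptors, adaptors, kinases, inhibitors and ubiquitin enzymes. Of 52 tested members 28 rose, 5 fell and 19 were not called, beside 39.1% higher and 9.7% lower of all tested genes, with a median log2 change of 0.38. Corrected, 9 were higher and 7 lower (all genes 16% and 12.8%), and median centring gave 11 higher and 13 lower (all genes 15.3% and 24.2%). The 6 members not tested, REL, TRAF5, TNIP3, TNFRSF1B, TLR3 and PELI1, reached at most 1.17 TPM.

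At the receptor end, TNFRSF1A, the main receptor for tumour necrosis factor, was 158.42, 159.64 and 168.68 TPM in control and 212.63, 214.31 and 207.16 TPM in OGT libraries (log2 change 0.38, adjusted p = 6.16e-04). IL1R1, the interleukin 1 receptor, was 6.15, 6.42 and 6.19 TPM in control and 14.23, 12.74 and 11.63 TPM in OGT libraries (0.93, adjusted p = 9.57e-04), with a corrected change of 0.23 that was not called (adjusted p = 0.174). Its adaptor MYD88 and the kinase IRAK1 rose by log2 changes of 0.68 and 0.38 (corrected 0.49 and 0.25, both called). RIPK2, the kinase of the NOD receptors, rose by 0.95, which lost its call after correction (0.38, adjusted p = 0.0562). After median centring TNFRSF1A and IRAK1 were both at -0.01 and not called.

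Among kinases of the IKK step, the regulatory subunit IKBKG was 49.87, 52.43 and 56.4 TPM in control and 74.03, 71.73 and 72.83 TPM in OGT libraries (log2 change 0.46, adjusted p = 0.00131; corrected 0.48). Its call was lost after median centring (0.07, adjusted p = 0.471). CHUK, the kinase of the noncanonical branch, rose by 1.00 (adjusted p = 0.0048) with a corrected change of 0.30 that was not called (adjusted p = 0.255). IKBKB, the canonical kinase, was 14.57, 9.42 and 14.09 TPM in control and 18.28, 14.54 and 14.32 TPM in OGT libraries and was not called (0.30, adjusted p = 0.214). MAP3K14, which activates CHUK, passed narrowly (0.27, adjusted p = 0.0447) and had a corrected change of 0.06 (adjusted p = 0.582). The call was kept in 1 of the 6 fits that each left out 1 library. IKBKE, an IKK-related kinase, fell by 0.45 on the log2 scale (adjusted p = 0.00424; corrected -0.58).

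Inhibitors other than NFKBIA were mixed. NFKBIE, encoding IkappaB epsilon, was 19.34, 19.51 and 18.66 TPM in control and 16.42, 15.69 and 15.17 TPM in OGT libraries. Its groups did not overlap, and it fell (log2 change -0.27, adjusted p = 0.033; corrected -0.29, adjusted p = 0.0327). The call of NFKBIE was lost in each of the 6 fits that left out 1 library (adjusted p between 0.058 and 0.0919) and in the blocked fit (adjusted p = 0.0797). NFKBIB, encoding IkappaB beta, was not called (0.17, adjusted p = 0.216), nor was the atypical member BCL3 (0.09, adjusted p = 0.646). NFKBIL1, named for its likeness to IkappaB, fell by 0.60 on the log2 scale (adjusted p = 6.33e-04; corrected -0.42). TNIP1, which helps TNFAIP3, was 407.5, 411.07 and 434.78 TPM in control and 360.84, 357.63 and 361.28 TPM in OGT libraries. It fell with a log2 change of -0.21 (adjusted p = 0.00392; corrected -0.31). TAX1BP1, a further partner of TNFAIP3, rose from 3.71, 3.35 and 2.77 TPM to 12.72, 15.9 and 13.82 TPM (1.83, adjusted p = 1.93e-04; corrected 1.32). The scaffold CARD10 completed the 5 that fell (-0.28, adjusted p = 0.0366; corrected -0.42), a call that ended when any 1 of control replicates 2 and 3 or OGT replicates 1, 2 and 3 was left out (adjusted p between 0.0612 and 0.0977), and with the block (adjusted p = 0.0804).

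Downstream, a list of 40 known NF-kappaB target genes that are not among the 10 was counted the same way. Of 36 tested targets 17 rose, 5 fell and 14 were not called, beside 39.1% higher and 9.7% lower of all tested genes, and their median log2 change of 0.23 was below the 0.30 of all tested genes. Corrected, 9 were higher and 4 lower of 35 (all genes 16% and 12.8%), and median centring gave 5 higher and 13 lower (all genes 15.3% and 24.2%). The transcription factor gene KLF6 rose from 14.24, 15.85 and 15.05 TPM to 37.75, 34.47 and 33.06 TPM (1.17, adjusted p = 1.45e-04; corrected 0.54). VCAM1, an adhesion molecule like ICAM1, was 28.8, 28.16 and 31.69 TPM in control and 52.39, 52.45 and 50.54 TPM in OGT libraries. Its log2 change was 0.79 (adjusted p = 2.48e-04), and its corrected change of 0.14 was not called (adjusted p = 0.171).

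The growth factor gene CSF1 rose by 0.62 and the antigen-presenting gene HLA-B by 0.25 (corrected 0.44 and 0.37, both called), although HLA-B was called lower after median centring (-0.14, adjusted p = 0.0464). The chemokine genes CXCL1 and CXCL8 rose by 0.42 and 0.36; after correction they were at 0.21 (called) and 0.02 (not called, adjusted p = 0.796). After median centring they were at 0.03 and -0.03, neither called.

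Of the 5 targets that fell, PSMB9, an immunoproteasome subunit, was 279.6, 291.19 and 288.52 TPM in control and 187.88, 197.11 and 216.56 TPM in OGT libraries (log2 change -0.51, adjusted p = 5.93e-04; corrected -0.33). CSF2, a haematopoietic growth factor gene, was 275.19, 290.89 and 294.73 TPM in control and 205.88, 199.6 and 233.1 TPM in OGT libraries (-0.43, adjusted p = 0.00199; corrected -0.37). The superoxide dismutase gene SOD2, the survival gene BCL2L1 and the cytokine gene IL32 had smaller changes of -0.20, -0.19 and -0.22. BCL2L1 was still called after correction (-0.28, adjusted p = 0.00416), whereas IL32 was not (-0.08, adjusted p = 0.377) and SOD2 had no reference transcript. BCL2L1 lost its call in 2 and IL32 in 4 of the 6 fits that left out 1 library. Without the trend and robust settings of limma, SOD2, BCL2L1 and IL32 all lost their calls (adjusted p = 0.061, 0.0923 and 0.0945). The 4 targets not tested, CXCL10, IL1A, SELE and PTGS2, reached at most 0.39 TPM.

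**Figure D4:**
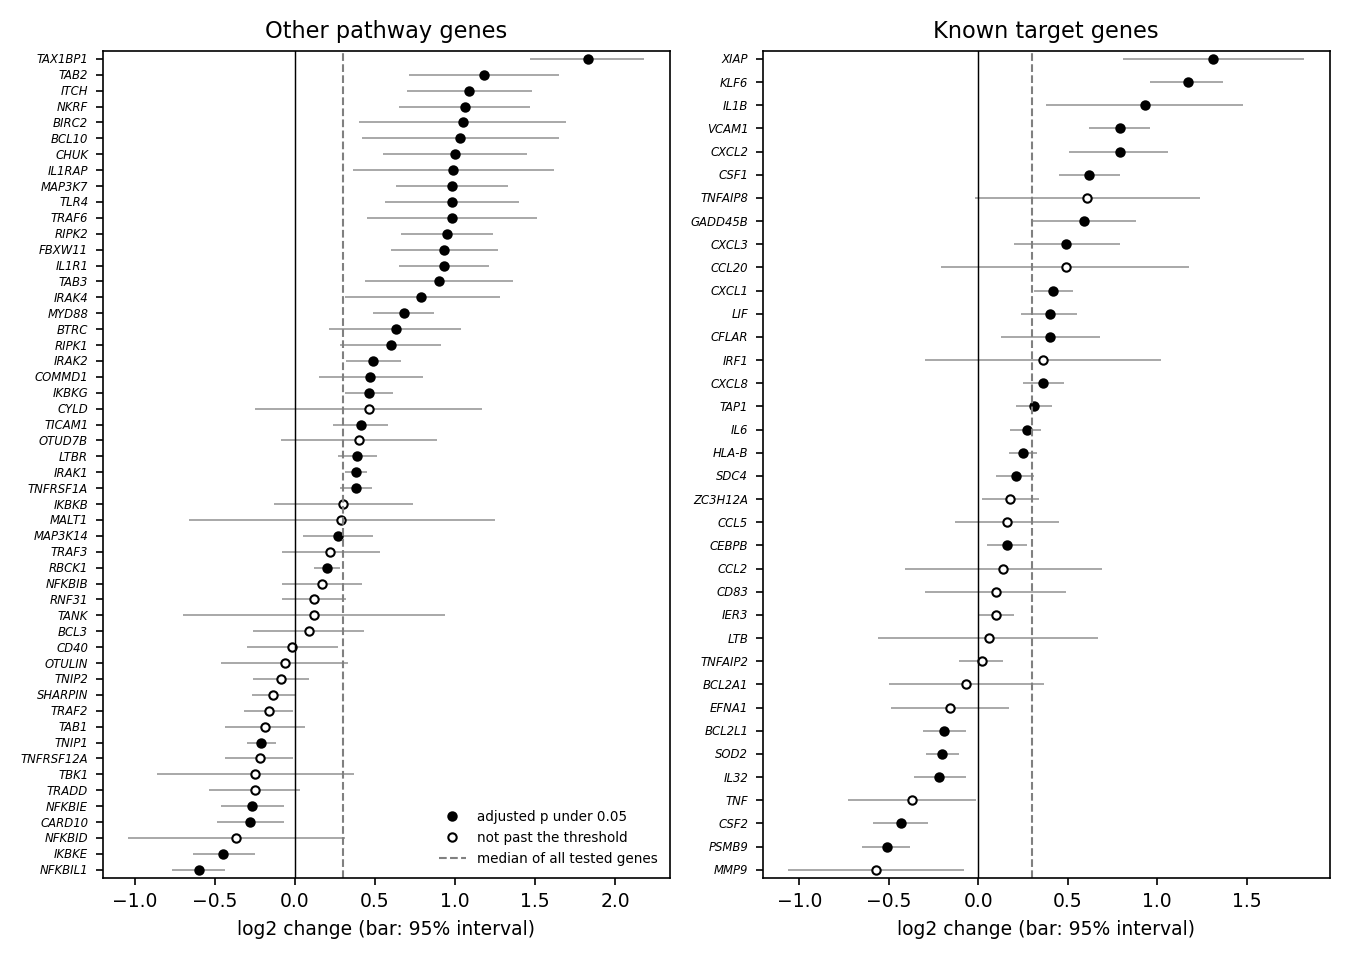
Log2 change with its 95% interval for the 52 tested pathway genes (left) and 36 tested target genes (right), filled where the adjusted p is below 0.05; the dashed line is the median of all tested genes. In the left panel 28 genes are called higher and 5 lower, and in the right panel 17 higher and 5 lower.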

How the data were processed

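RNA libraries of 786-O cells were made with a TruSeq RNA kit, per the labels' protocols. The authors deposited TPM per gene, 1 column per sample and no pooling; the sources used here do not give the aligner, the counting or the annotation behind it. GRCm38 and mm10, both mouse builds, are named in the submitters' processing notes, while the gene identifiers are human. The values gave the unit, since columns sum to between 993935.5 and 996951.6. Groups came from the sample titles.

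Genes reaching 1 TPM in 3 or more samples were tested on log2(TPM + 1) with limma 3.58.1 (R 4.3.3; eBayes with trend and robust, two-sided, Benjamini-Hochberg threshold 0.05), also tried on simulated data. GC content and length came from each gene's longest transcript in GENCODE release 29 (12348 genes); corrected changes removed each library's spline trend on both (4 degrees of freedom each). The numbers did not pair samples: correlations of deviations were -0.0194, 0.00264 and 0.0166. Named genes were the 10, OGT, listed core components, up to 6 rises and 6 falls of smallest adjusted p per list, and the 3 nearest profiles. Genes and lists were chosen with earlier results of these data known. Alternatives also covered a pseudocount of 0.1, no filter, a mean of at least 5 TPM, scalings, a replicate block, and each replicate left out. A further immune marker is not reported here.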

Additional observations from a re-analysis of the deposited data

How the results depend on the processing

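Over 14 alternatives, the calls and directions of RELA, ICAM1 and NFKBIA were kept. Scaling moved the counts most. Quantile normalization gave 3 of the 10 genes higher and 3 lower, 16 pathway genes higher and 10 lower, 8 targets lower, and 2558 genes higher and 2245 lower in all. Median centring gave 2 and 4 of the 10 genes, 11 and 13 pathway genes, 5 and 13 targets, and 1937 and 3066 of all genes. Trend removal gave 2 and 2 of the 10 genes, 9 pathway genes higher, 9 targets higher and 1974 genes higher in all. A mean of at least 5 TPM left 16 of 36 tested pathway genes higher, beside 3621 of all 8190 tested genes. Without a filter, 3 of 58 pathway genes were lower, beside 954 of all 25005. The replicate block left 3 of 52 pathway genes lower, beside 1091 of all 12645. Without its trend and robust settings, dropped together, eBayes left 3 of 36 targets lower, beside 1046 of all 12645. The cause of these moves was not tested. Fits without 1 replicate gave 4 to 6 of the 10 genes higher and 1 to 2 lower, 23 to 28 pathway genes higher and 3 to 5 lower, 14 to 17 targets higher and 3 to 5 lower, and 3899 to 4604 genes higher and 989 to 1127 lower in all.

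Signs turned after quantile normalization for NFKBIB (-0.03), BCL3 (-0.18), IKBKB (-0.05) and MAP3K14 (-0.03). They turned after median centring for NFKB2 (-0.16), IRAK1 (-0.01), TNFRSF1A (-0.01), NFKBIB (-0.22), BCL3 (-0.30), IKBKB (-0.09), MAP3K14 (-0.12), HLA-B (-0.14) and CXCL8 (-0.03). They also turned after trend removal for NFKB1 (-0.01) and IKBKB (-0.05), and without control replicate 1 for BCL3 (-0.06; 0.22 at the highest without another replicate). The replicate block, over numbers that showed no pairing, called NFKBIZ (0.60) and left 4382 genes higher and 1091 lower. The unknown depth limits what can be said of genes near 1 TPM.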
